A study of Mus musculus with 12 samples.

Results

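The annexins and S100 proteins described here are 10 mouse genes: the annexins Anxa1, Anxa2, Anxa3, Anxa5 and Anxa7, and the S100 genes S100a6, S100a8, S100a9, S100a10 and S100a11. Their members were all probe sets annotated to only one of these symbols, which gave 14 of the 22626 probe sets on the Affymetrix 430A array and 16 of the 45037 on the larger 430 2.0 array, for 9 of the 10 genes (of 12393 and 18193 genes in all). S100a11 had no such probe set, since its only one, 1460351_at, carries 3 symbols, S100a11, the pseudogene S100a11-ps and Gm12854, and was not used. No measured value entered the choice of probe sets for these genes, but the genes themselves were chosen with earlier results of these data known.

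Annexins are proteins that bind acidic phospholipids of membranes when calcium rises, and S100 proteins are small calcium-binding proteins that act mostly as dimers and change the behaviour of the proteins they bind. The families meet in fixed pairs: a dimer of the S100a10 product holds 2 copies of the Anxa2 product at the cell surface, where the complex binds plasminogen and its activator, and the product of S100a11 binds that of Anxa1. S100a8 and S100a9 form calprotectin, a major protein of the neutrophil cytosol that is also made by monocytes, and so belong with inflammation rather than with the liver epithelium. In healthy liver several annexins and S100 proteins are richer in bile duct, endothelial and blood-derived cells than in hepatocytes.

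RNA came from livers of mice 10 weeks of age. The Fah product, fumarylacetoacetate hydrolase, ends the breakdown of tyrosine. NTBC inhibits the pathway further up, so that Fah knockout mice stay well on the drug. The Fah p21 off group held livers of mice lacking both Fah and p21, the product of Cdkn1a and an inhibitor of the cell cycle, 14 days after the drug was withdrawn: 2 on 430A and 2 others on 430 2.0. The Fah off group held 3 livers of Fah knockout mice after the same 14 days, all on 430A. The normal group, as titled, pooled 4 mice of different kinds on 430A, called normal 1 to normal 4 below: a wildtype given water and, each kept on NTBC, a wildtype, a mouse lacking Fah and a mouse lacking Fah and p21. The single normal array of 430 2.0 has the replicate number of normal 4 and was treated as that mouse measured again. The sources used here name no sex, strain or extent of the knockout alleles. The titles call the arrays biological replicates, and p-values measure the spread between these livers only.

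Values are MAS5 signals, a linear brightness per probe set that the authors had scaled to a common level on each array, so levels are compared between livers for 1 probe set and never between genes or between the array designs. Differences were tested with limma on log2(signal + an offset of 9.9 on 430A and 3.8 on 430 2.0), with Benjamini-Hochberg adjustment across every tested probe set. A member was said to rise or fall at an adjusted p under 0.05. Fah signal was 114.2 and 105.3 in the Fah p21 off livers and between 100.8 and 113.5 in the Fah off livers, against 6868.1 and 7120.1 in the wildtype livers and 181.9 and 233 in the knockout livers on NTBC. Cdkn1a probe set 1421679_a_at read 9.5 and 8.2 in the Fah p21 off livers, against 989.5 to 1861.5 in the Fah off livers and 14.7 to 51.4 in the normal livers, while its other probe set, 1424638_at, read 1827.6 and 2059.6 in the Fah p21 off livers. The sources used here do not say whether that second probe set lies outside the deleted part. The hepatocyte markers were bright in every liver, with a summed signal over 10 genes of 67930 to 71440 in Fah p21 off, 70260 to 79110 in Fah off and 116900 to 122100 in normal livers. In whole liver, fewer cells of a type and less RNA per cell cannot be told apart.

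After NTBC withdrawal the annexins Anxa2, Anxa3 and Anxa5 and the S100 genes S100a6 and S100a10 rose in both knockout genotypes on 430A. Anxa7 rose in both by only 1 of its 3 tested probe sets, and Anxa1 passed only in the test of the double knockout. In Fah p21 off against normal livers on 430A, 8 of the 14 probe sets rose and none fell, where 28.4% of all tested probe sets passed in either direction, with 17.7% rising and 10.7% falling. In Fah off against normal livers 7 of the 14 rose and none fell, where 35.5% of all tested probe sets passed, with 20.1% rising and 15.4% falling. Both comparisons share the 4 normal livers. Of the 14, 10 were bright enough to be tested, with a signal that reached the 40th percentile of its array in 2 or more of the 9 livers. S100a6 reached that level in none of the 4 normal livers and entered through the livers off NTBC, so its difference was in part built into the filter. The 4 not tested were 2 dim probe sets of Anxa2 and the probe sets of S100a8 and S100a9. Counted over all 14 without a test, 9 read higher in both Fah p21 off livers than in every normal liver, as did 23.9% of all probe sets, and 1 read lower, as did 15.1%. For Fah off livers the count was 7 higher and none lower, against 17.8% and 15.4% of all probe sets.

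S100a6, also called calcyclin and first described as a gene of growing cells, had the largest change among the tested members. On 430A S100a6 entered the test only through the livers off NTBC, so its rise and p-values there were in part built into the filter. Its signal was 487.3 and 1005.5 in the Fah p21 off livers and 303.8, 468 and 597.2 in the Fah off livers, against 71, 49.8, 29.2 and 49.8 in normal 1 to normal 4. Every liver off NTBC read above every normal liver, and the lowest of them was the first Fah off liver. The rise was 3.62 ± 0.36 on the log2 scale (SE, n = 2 and 4), or 12.3-fold, in Fah p21 off livers (limma adjusted p = 4.14e-05) and 2.96 ± 0.31 (n = 3 and 4), or 7.76-fold, in Fah off livers (limma adjusted p = 3.73e-05). On 430 2.0 the signal was 683.4 and 1073 in the other 2 Fah p21 off livers and 114.2 in the normal liver, a 7.29-fold rise (limma adjusted p = 0.003).

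Anxa5 encodes annexin A5, which binds phosphatidylserine and is used as a label of dying cells. It read 1730.3 and 2385.6 in the Fah p21 off livers and 1984.6, 2073.8 and 1790.5 in the Fah off livers, against 384.9, 286, 437.5 and 372.6 in the normal livers. The groups off NTBC lay on the same level, far clear of the normal range. The log2 change was 2.44 ± 0.19, or 5.43-fold, in Fah p21 off (limma adjusted p = 9.35e-06) and 2.38 ± 0.17, or 5.2-fold, in Fah off livers (limma adjusted p = 2.17e-06). With 3335.1 and 4216.4 in Fah p21 off livers against 586.8 in the normal liver, 430 2.0 gave 6.36-fold (limma adjusted p = 0.00122).

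Anxa2 and S100a10, the partners of the cell surface complex, both rose. Anxa2 probe set 1419091_a_at read 1114.1 and 2141.8 in Fah p21 off and 880.7, 1323.9 and 1944.2 in Fah off livers, against 625.1, 638.9, 509.6 and 712.8 in normal livers. Both groups off NTBC lay above the normal livers and overlapped each other, with a wide spread within each. The changes were 1.31 ± 0.31, or 2.48-fold, in Fah p21 off (limma adjusted p = 0.00895) and 1.08 ± 0.27, or 2.11-fold, in Fah off livers (limma adjusted p = 0.0101). On 430 2.0 Anxa2 read 4177.8 and 4297 in Fah p21 off livers against 764.8 in the normal liver, 5.52-fold (limma adjusted p = 0.00107). The other Anxa2 probe sets carried little signal: 1437691_at read between 1.3 and 18.6 on the 9 arrays of 430A, and 1437692_x_at read 106.2 and 80.8 in Fah p21 off, 14.8 to 76.4 in Fah off and 8.7 to 57.2 in normal livers. On 430 2.0 probe set 1437692_x_at was tested, at 100.2 and 119.5 in Fah p21 off livers against 111 in the normal liver, and its log2 difference was -0.02 with a 95% interval of -0.96 to 0.92.

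S100a10 probe set 1416762_at read 4620.2 and 5240.8 in Fah p21 off and 4160.9, 4561.2 and 5585.5 in Fah off livers, against 2395, 2396, 1476.9 and 943.4 in normal livers. Among the normal livers the wildtype mice read higher than both knockouts on NTBC, so the distance to the livers off NTBC depends on which normal mouse is taken. The change was 1.54 ± 0.32, or 2.91-fold, in Fah p21 off (limma adjusted p = 0.00434) and 1.49 ± 0.28, or 2.8-fold, in Fah off livers (limma adjusted p = 0.00185). Set against only the normal mouse of the same genotype, a single liver whose spread was assumed to be that of the other groups, the changes were 2.37 in Fah p21 off (limma adjusted p = 0.00119) and 1.67 in Fah off livers (limma adjusted p = 0.0261). A further probe set, 1456642_x_at, rose 2.19-fold in Fah p21 off livers, at 2008.2 and 2325 against 751.7 to 1195.7 in normal livers (limma adjusted p = 0.00347). Its change in Fah off livers was 2.05-fold, at 1725 to 2737.8 (limma adjusted p = 0.00199). On 430 2.0 the 3 probe sets of S100a10 differed among themselves. Probe set 1416762_at rose 3.3-fold, with 6605.2 and 8098.3 in Fah p21 off livers against 2214.7 in the normal liver (limma adjusted p = 0.00549). Probe set 1439348_at, not on 430A, rose 4.8-fold, with 463.4 and 189.3 in Fah p21 off livers against 58.8 in the normal liver (limma adjusted p = 0.0378). Probe set 1456642_x_at read 6521.1 and 9125.9 in Fah p21 off livers against 5419.8 in the normal liver and did not pass, at a log2 difference of 0.51 with a 95% interval of -0.13 to 1.15 (limma adjusted p = 0.295).

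**Figure D1:**
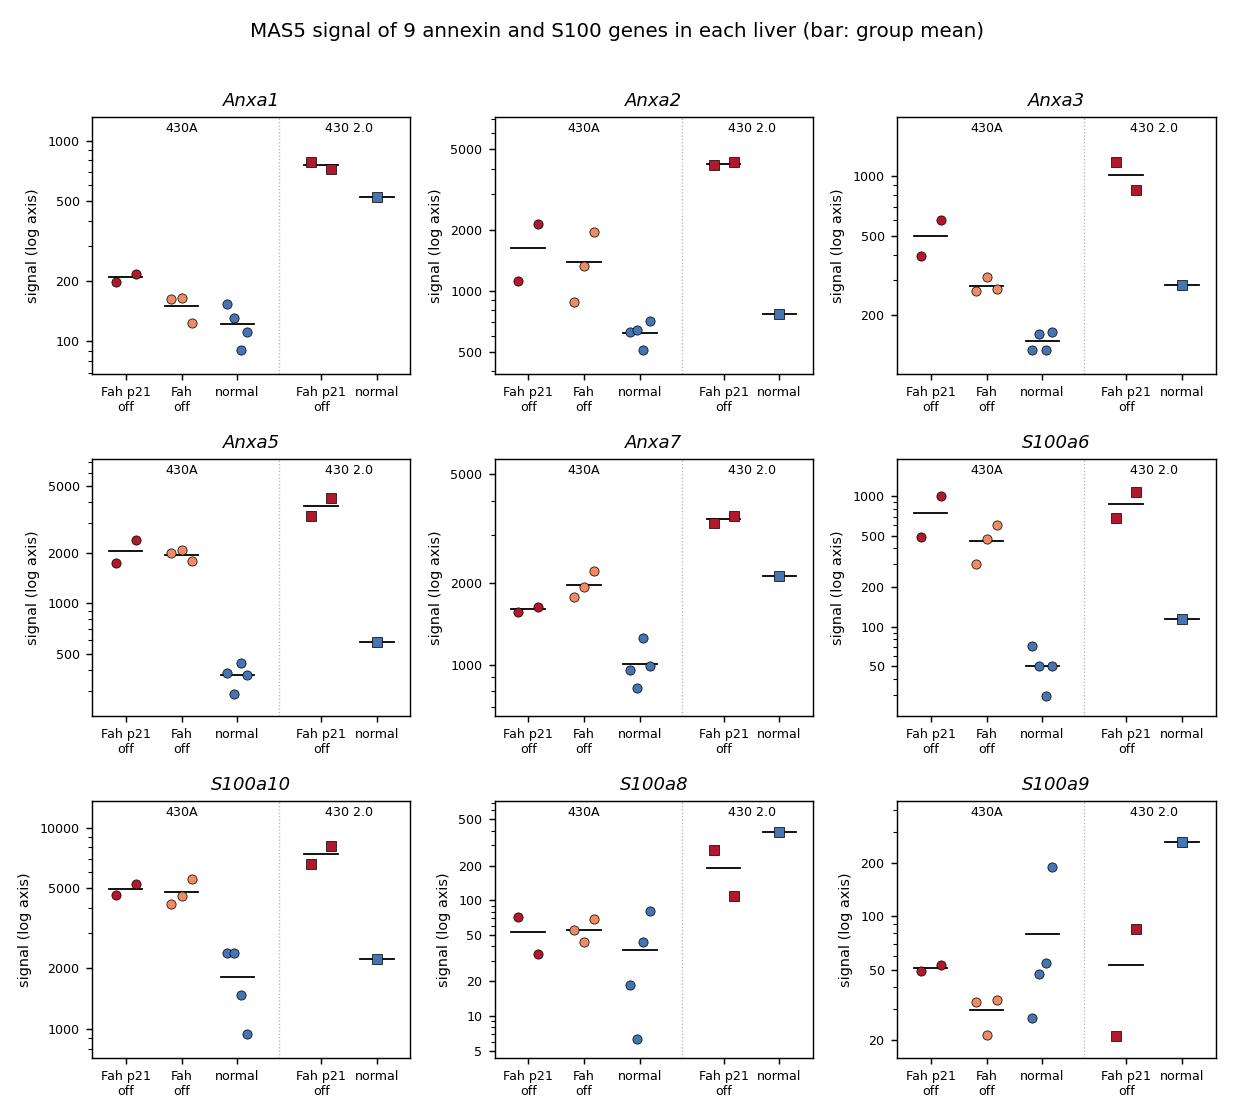
MAS5 signal (log axis) of 1 probe set for each of the 9 genes, with 1 point for each liver and a bar at the group mean; circles are 430A arrays and squares 430 2.0 arrays, which were scaled separately. S100a6 lay at 303.8 or above in each of the 5 livers off NTBC of 430A and at 71 or below in the 4 normal livers, while S100a8 and S100a9 in each group off NTBC overlapped the normal livers on 430A and lay below the single normal liver on 430 2.0.

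Anxa3, whose product binds phospholipids and has been described in rodent hepatocytes in culture and in growing liver, read 396.1 and 595.9 in Fah p21 off and 262.8, 311.1 and 269.2 in Fah off livers, against 133.4, 161.6, 134.4 and 164.8 in normal livers. The 3 groups did not overlap and were stepped, with the double knockout highest. The rise over normal livers was 1.65 ± 0.19, or 3.14-fold, in Fah p21 off (limma adjusted p = 0.000125) and 0.88 ± 0.17, or 1.84-fold, in Fah off livers (limma adjusted p = 0.00213). On 430 2.0 Anxa3 read 1173.1 and 851.8 in Fah p21 off livers against 282.9 in the normal liver, 3.5-fold (limma adjusted p = 0.00982).

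Anxa1 encodes annexin A1, which dampens inflammation through formyl peptide receptors. It read 198.6 and 217.9 in Fah p21 off and 162.9, 165.4 and 124.2 in Fah off livers, against 153, 131.3, 90.4 and 111.2 in normal livers. The Fah off livers overlapped the normal ones and the Fah p21 off livers did not. The change was 0.75 ± 0.22, or 1.69-fold, in Fah p21 off (limma adjusted p = 0.0272), against 0.30 ± 0.20 in Fah off livers, which did not pass (limma adjusted p = 0.259). On 430 2.0 probe set 1448213_at read 783.8 and 726.2 against 525.3 in the normal liver and did not pass (limma adjusted p = 0.25), and 1444016_at was near the background of that array, at 9.3 and 3.5 in Fah p21 off livers against 6.1 in the normal liver.

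The 3 probe sets of Anxa7, an annexin linked to membrane fusion in secretion, disagreed. Probe set 1416138_at read 1563 and 1635.7 in Fah p21 off and 1767.8, 1927.7 and 2211.7 in Fah off livers, against 959.8, 823.4, 1252 and 991.2 in normal livers. Its rise was 0.68 ± 0.17, or 1.6-fold, in Fah p21 off (limma adjusted p = 0.0126) and 0.97 ± 0.15, or 1.96-fold, in Fah off livers (limma adjusted p = 0.000517). Probe set 1416137_at overlapped between groups, with 553.5 and 463.3 in Fah p21 off and 410.7 to 578.2 in Fah off against 287.2 to 519.6 in normal livers, and did not pass in either comparison. Without normal 4 it passed in both, at 0.69 in Fah p21 off (limma adjusted p = 0.0185) and 0.64 in Fah off livers (limma adjusted p = 0.0137). Probe set 1438764_at went the other way in Fah p21 off livers, at 56.2 and 44 against 67.3 to 108.5 in normal livers, without passing (log2 difference -0.63 ± 0.30, limma adjusted p = 0.15). On 430 2.0 none of the 3 passed, with 3314.8 and 3515.9 in Fah p21 off livers against 2116.8 in the normal liver for 1416138_at (log2 difference 0.69 ± 0.22, limma adjusted p = 0.101).

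On 430 2.0, 6 of the 16 probe sets rose in Fah p21 off livers and none fell, where 11.5% of all tested probe sets passed, with 7.71% rising and 3.8% falling. These 6 were the ones described above for Anxa2, Anxa3, Anxa5, S100a6 and S100a10. Of the 16, 14 were bright enough to be tested there, and the 2 left out were Anxa1 1444016_at and Anxa2 1437691_at. That fit had 1 residual degree of freedom and a single normal liver, which was assumed to vary like the pair of Fah p21 off livers.

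**Figure D2:**
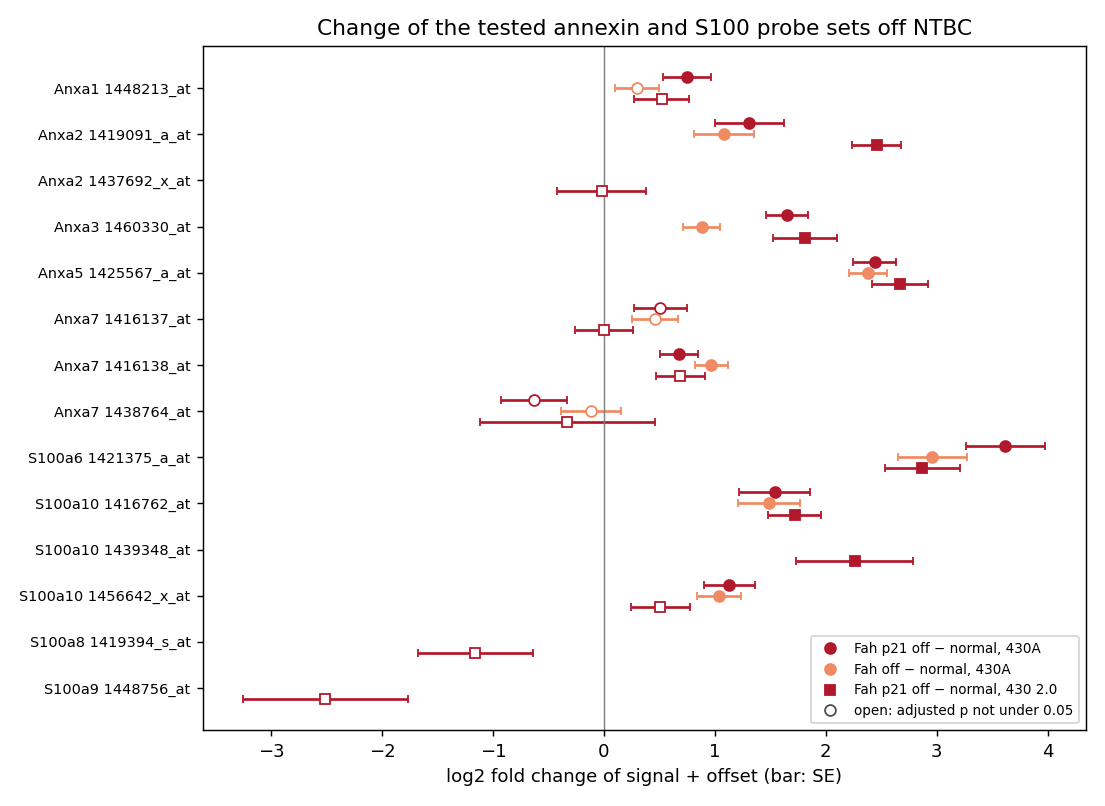
Log2 change with its standard error for each tested probe set in Fah p21 off and Fah off livers against normal livers on 430A, and in Fah p21 off livers against the normal liver on 430 2.0; filled points passed at an adjusted p under 0.05 and open points did not. S100a6 (3.62 and 2.96 on 430A) and Anxa5 (2.44 and 2.38) lie farthest right, and S100a8 and S100a9, tested on 430 2.0 only, lie left of 0 as open points.

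Some of these calls rest on few livers. Leaving out either Fah p21 off liver leaves 1, which was assumed to vary like the other groups. Without the second Fah p21 off liver 5 of the 8 rises in Fah p21 off were still called, and the calls of Anxa1 (log2 change 0.69, limma adjusted p = 0.157), Anxa2 (0.84, adjusted p = 0.136) and Anxa7 1416138_at (0.65, adjusted p = 0.0876) were lost. Without the first Fah p21 off liver the calls of Anxa1 (0.82, limma adjusted p = 0.101) and Anxa7 1416138_at (0.71, adjusted p = 0.0658) were lost. Anxa1 was also lost without normal 3 (0.63, limma adjusted p = 0.0515) and when arrays were scaled by quantiles (0.55, limma adjusted p = 0.113) or to a common median (0.52, adjusted p = 0.141). The second Fah p21 off liver read above the first in each of the 8 probe sets that rose, as it did in 46.8% of all tested probe sets and in 51.4% of the 2716 that rose. Among the Fah off livers the first was lowest in 5 of these 8 probe sets and the third highest in 5.

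The regions upstream of 4 of these genes are shown for their contrast: S100a6, Anxa5 and Anxa2 rose off NTBC, and S100a8, which lies beside S100a6 on chromosome 3 with only S100a7a between them, is the inflammatory neighbour. Each window runs from 250 bases before to 50 bases after the gene's start in RefSeq (build GRCm38.p6), read 5′ to 3′ on the gene's strand. Capitals mark matches, on either strand, to 6 motifs: the AP-1 element with the letters TGANTCA, the GC box with the letters GGGCGG, the TATA box with the letters TATAAA, the CCAAT box, the C/EBP element with the letters TTNNGNAA and the Nrf2 antioxidant element with the letters TGANNNNGC. No matches overlapped in these 4 windows.
S100a6 (chr3:90612644-90612943, plus strand): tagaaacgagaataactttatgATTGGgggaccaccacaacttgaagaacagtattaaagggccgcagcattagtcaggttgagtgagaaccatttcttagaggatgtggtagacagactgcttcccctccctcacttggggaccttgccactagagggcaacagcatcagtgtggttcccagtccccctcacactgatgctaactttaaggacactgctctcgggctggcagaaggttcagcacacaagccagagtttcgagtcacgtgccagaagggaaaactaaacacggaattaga
Anxa5 (chr3:36475838-36476137, minus strand): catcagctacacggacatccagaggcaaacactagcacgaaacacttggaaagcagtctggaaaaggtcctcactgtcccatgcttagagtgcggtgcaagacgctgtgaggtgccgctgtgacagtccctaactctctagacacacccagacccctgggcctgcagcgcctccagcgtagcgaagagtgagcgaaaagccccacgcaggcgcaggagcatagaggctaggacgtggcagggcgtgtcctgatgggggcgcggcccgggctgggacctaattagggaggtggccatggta
Anxa2 (chr9:69453433-69453732, plus strand): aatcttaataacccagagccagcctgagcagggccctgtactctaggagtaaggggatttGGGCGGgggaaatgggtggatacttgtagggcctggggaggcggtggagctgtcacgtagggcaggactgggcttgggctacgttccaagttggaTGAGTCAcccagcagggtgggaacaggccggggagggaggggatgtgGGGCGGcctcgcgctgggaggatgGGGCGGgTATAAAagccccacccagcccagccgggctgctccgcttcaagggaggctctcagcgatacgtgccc
S100a8 (chr3:90668821-90669120, plus strand): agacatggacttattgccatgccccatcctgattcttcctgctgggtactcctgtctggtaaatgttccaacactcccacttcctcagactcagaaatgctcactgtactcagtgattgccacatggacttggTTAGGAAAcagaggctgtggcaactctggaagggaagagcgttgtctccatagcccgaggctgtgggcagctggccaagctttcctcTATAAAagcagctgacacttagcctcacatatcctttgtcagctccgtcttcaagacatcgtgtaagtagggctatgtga
The Anxa2 window holds an AP-1 match 95 bases before the start, 3 GC boxes and a TATA match. AP-1 letters stand in 7.81% of the 32851 windows of the table, and among the 8 of the 10 genes with a window they stand in Anxa2 and S100a11. The S100a8 window has a TATA match 30 bases before the start and a C/EBP match 117 bases before it. TATA letters stand in 13.6% and C/EBP letters in 40.7% of all windows. In the S100a6 window only CCAAT was matched, which stands in 37.4% of all windows, and the Anxa5 window held none of the 6. GC made up 63.7% of the Anxa2 window and 60.3% of the Anxa5 window, against 49.3% for S100a6, 50% for S100a8 and a median of 52.7% over all windows. The Anxa5 window has 16 CpG dinucleotides and the Anxa2 window 13, against 6 for S100a6, 4 for S100a8 and a median of 7. These matches describe letters in the windows and no binding was measured.

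S100a8 and S100a9, the calprotectin genes, were dim on 430A and behaved apart from the members above. S100a8 read 71.8 and 34.4 in Fah p21 off and 55.7, 43.5 and 68.4 in Fah off livers, against 18.7, 6.3, 43.3 and 81.4 in normal livers. S100a9 read 49.3 and 52.8 in Fah p21 off and 32.8, 21.4 and 33.8 in Fah off livers, against 26.5, 47.4, 54.3 and 191.7 in normal livers. For both genes each group off NTBC overlapped the normal livers, and neither was bright enough to be tested. S100a9 in the Fah p21 off livers lay above the Fah off livers, while S100a8 overlapped between them. The highest of the 9 values was in both genes that of normal 4, the double knockout kept on NTBC. The array of normal 4 on 430 2.0 was again the highest of its design. There S100a8 read 272.8 and 109.4 in Fah p21 off livers against 390.7 in the normal liver (log2 difference -1.16 ± 0.52, limma adjusted p = 0.218). S100a9 read 21.1 and 85.2 in Fah p21 off livers against 264.3 in the normal liver (-2.51 ± 0.74, limma adjusted p = 0.079). Neither passed on 430 2.0, and the 95% interval for S100a9, unadjusted for the number of tests, was -4.27 to -0.75.

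Ltf, Camp and Mpo are named here after their values were seen. Of the 14 neutrophil markers on 430A, 8 were tested, and none passed in either comparison with normal livers. Of all tested probe sets 28.4% passed in Fah p21 off and 35.5% in Fah off livers. Over all 14, 3 lay above every normal liver in Fah p21 off and none below, beside 23.9% and 15.1% of all probe sets. In Fah off livers 1 lay above and 2 below, beside 17.8% and 15.4% of all probe sets. The summed signal of the 14 was 1158 to 1162 in Fah p21 off and 869.4 to 1011 in Fah off livers, against 918.2 to 1589 in normal livers, where normal 4 was the highest. The granule genes differed among themselves. Ltf, the granule protein lactoferrin, read 196.5 and 255.7 in Fah p21 off and 105.9 to 165.8 in Fah off livers, against 113 to 196.4 in normal livers. The Fah p21 off livers thus lay just above the others without passing (log2 difference from normal 0.59 ± 0.25, limma adjusted p = 0.103). On 430 2.0 the Ltf difference was 1.49 ± 0.40 and did not pass either. Camp, a granule peptide precursor, read 12.2 and 14 in Fah p21 off and 8.3 to 11.7 in Fah off livers, against 8.7 to 11 in normal livers, near the offset but apart from normal in Fah p21 off. Mpo, the neutrophil peroxidase, read 134.3 and 144.1 in Fah p21 off and 100.7 to 142 in Fah off livers, against 114.9 to 231.1 in normal livers. On 430 2.0 Mpo lay the other way from Ltf, at 17.4 and 30.5 in Fah p21 off livers against 60.9 in the normal liver. Camp read 15.7 and 19.7 there, against 9.6. The summed signal of the 14 on 430 2.0 was 650.7 and 510.9 in Fah p21 off livers, on either side of 567.8 in the normal liver. Ly6g and Retnlg were not analysed here.

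Loss of p21 among livers off NTBC was asked by setting Fah p21 off against Fah off livers. None of the 10 tested probe sets passed limma at an adjusted p under 0.05, where 0.0392% of all tested probe sets did, or 6 of 15307, and 1 had an unadjusted p under 0.05. That one was Anxa3, higher in Fah p21 off by 0.77 ± 0.20 on the log2 scale with a 95% interval of 0.32 to 1.22 (limma adjusted p = 0.27). For Anxa5 the difference was 0.06 with an interval of -0.38 to 0.50, or from 0.769-fold to 1.42-fold. S100a10 1416762_at gave the same 0.06 with a wider interval of -0.69 to 0.80, and Anxa2 gave 0.23 with -0.49 to 0.95. S100a6 was 0.66 higher in Fah p21 off with an interval of -0.17 to 1.48, and Anxa1 0.45 higher with -0.07 to 0.97. For Anxa7 1416138_at the difference was -0.29, lower in Fah p21 off, with an interval of -0.69 to 0.10. A difference of 2-fold (log2 of 1) thus lay outside the intervals of Anxa1, Anxa2, Anxa5, S100a10 and Anxa7 1416138_at, and inside those of Anxa3, S100a6 and, on the lower side, Anxa7 1438764_at. These intervals are not adjusted for the number of tests. Without a test, 4 of the 14 probe sets read higher in both Fah p21 off livers than in all Fah off livers, as did 17.3% of all probe sets, and 1 read lower in them, as did 8.94%.

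**Figure D3:**
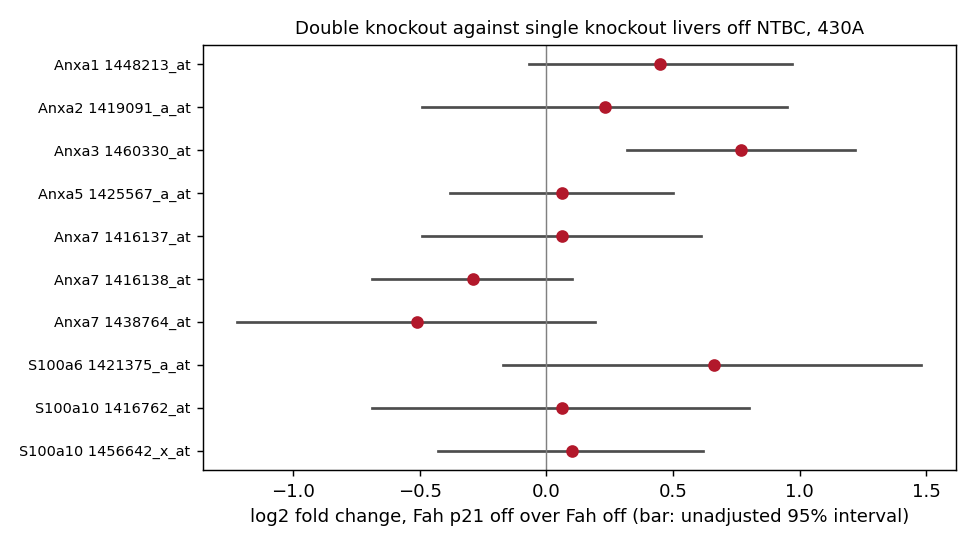
Log2 difference of Fah p21 off minus Fah off livers on 430A for the 10 tested probe sets, with 95% intervals from limma that are not adjusted for the number of tests. The interval of Anxa3 (0.32 to 1.22) lies right of 0, and the other 9 cross it.

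Of the other annexins, 6 of 7 were on 430A with a probe set of their own and 3 were tested. Anxa13, an annexin of epithelia of gut and kidney, rose in both genotypes and the other 2 tested, Anxa4 and Anxa6, did not pass. It reached the filter's level in none of the normal livers, so its rise too was in part built in. Its signal was 323.7 and 450 in Fah p21 off and 136.4 to 320.1 in Fah off livers, against 33.3 to 81.8 in normal livers. The log2 change was 2.51 ± 0.37 in Fah p21 off (limma adjusted p = 0.000578) and 1.84 ± 0.33 in Fah off livers (limma adjusted p = 0.00132). It rose 7.98-fold on 430 2.0, with 818.7 and 1067.8 in Fah p21 off livers against 113.9 in the normal liver (limma adjusted p = 0.00145). The median change of the 6 was 0.27 in Fah p21 off and -0.17 in Fah off livers, where that of all genes was 0.09 and -0.01.

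Of 11 other S100 genes, 9 were on 430A and 5 were tested, of which 1 rose and 1 fell in each comparison with normal livers. Of all tested probe sets 17.7% rose and 10.7% fell in Fah p21 off, and 20.1% rose and 15.4% fell in Fah off livers. S100g, the calbindin of calcium-absorbing gut cells, read 95.3 and 99.8 in Fah p21 off and 49.6 to 152.3 in Fah off livers, against 1.8 to 2.8 in normal livers, which lies under the offset. It entered the test through the livers off NTBC alone, so the rise was in part built into the filter, and the fitted change of 3.14 ± 0.49 in Fah p21 off (limma adjusted p = 0.000808) and 2.93 ± 0.43 in Fah off livers (limma adjusted p = 0.000371) depends on the offset. S100a1, best known from heart muscle, went the other way. It read 899 and 933.6 in Fah p21 off and 854.2 to 1103 in Fah off livers, against 1949.9 to 2213.6 in normal livers. Its log2 change was -1.21 ± 0.14 in Fah p21 off (limma adjusted p = 0.000119) and -1.09 ± 0.12 in Fah off livers (limma adjusted p = 5.98e-05). S100a10, bright in every liver, rose and S100a1 fell, so these S100 genes did not move one way. The medians of the 9 other S100 genes were 0.05 in Fah p21 off and -0.43 in Fah off livers.

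Among 16 genes of binding partners and receptors, 15 were on 430A and 12 were tested, and 4 rose and 1 fell in each comparison with normal livers. The shares of all tested probe sets were 17.7% rising and 10.7% falling in Fah p21 off, and 20.1% and 15.4% in Fah off livers. Cd36, a scavenger receptor that takes up fatty acids and binds the S100a8 and S100a9 complex when it carries arachidonic acid, read 2718.6 and 3438.1 in Fah p21 off and 2296.2 to 3077.5 in Fah off livers, against 187.7 to 448.9 in normal livers. Its log2 change was 3.58 ± 0.30 in Fah p21 off and 3.41 ± 0.27 in Fah off livers. Plat, the tissue plasminogen activator that binds the Anxa2 and S100a10 complex, read 278.6 and 366.9 in Fah p21 off and 325.5 to 590.4 in Fah off livers, against 47.2 to 97.3 in normal livers. Plaur, the receptor of urokinase, read 288.5 and 474.4 in Fah p21 off and 310 to 500.3 in Fah off livers, against 119.3 to 160.7 in normal livers. All 3 rose in both genotypes, and of them Plat entered the test through the livers off NTBC. Plg, plasminogen itself and a secreted product of hepatocytes, was the gene that fell and is named after its values were seen. It read 5492.4 and 5523.9 in Fah p21 off and 5092.7 to 6039.1 in Fah off livers, against 11951.6 to 13122 in normal livers. The median change over the 15 was 0.04 in Fah p21 off and -0.15 in Fah off livers.

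Lists of markers of other cells were read beside these changes. Of all tested probe sets 17.7% rose and 10.7% fell in Fah p21 off, and 20.1% rose and 15.4% fell in Fah off livers. Of the 10 cholangiocyte markers on 430A 5 were tested, but each of these reached the filter's level in fewer than 2 normal livers and entered through the livers off NTBC, so their calls were in part built into the filter and are not counted here. Without a test, 8 of the 10 lay above every normal liver in both Fah p21 off livers and 5 in the Fah off livers, beside 23.9% and 17.8% of all probe sets. The 8 include the dim Muc1, at 7.9 and 11.7 in Fah p21 off livers against at most 7.4 in normal livers. They also include Cftr, at 32.8 and 37 against at most 30.2. The summed signal of the 10 was 1332 to 2098 in Fah p21 off and 1376 to 1424 in Fah off livers, against 185 to 355.5 in normal livers. The brightest of the list off NTBC were Prom1, Krt23 and Cldn4. Prom1 read 309.8 and 828 in Fah p21 off and 305.2 to 357.9 in Fah off livers, against 23.3 to 62.5 in normal livers. Krt23 read 424.8 and 443, and 338.2 to 478.6, against 10.6 to 91.6. Cldn4 read 276.7 and 379.2, and 297.6 to 446.7, against 33.3 to 98.2. The duct keratins were dim and overlapped the normal livers. Krt19 read 29.1 and 60.8 in Fah p21 off and 11.8 to 42.5 in Fah off livers, against 15.5 to 30.4 in normal livers. Krt7 read between 7.7 and 36 on all 9 arrays. These cholangiocyte markers are named after their values were seen. Of the 12 stellate cell and matrix markers 4 entered through the livers off NTBC, so the calls of this list are not counted either. Without a test, 8 of the 12 lay above every normal liver in both Fah p21 off livers, beside 23.9% of all probe sets. In the Fah off livers 3 of the 12 did, beside 17.8%. The summed signal of the 12 was 8744 to 9636 in Fah p21 off and 5884 to 8392 in Fah off livers, against 4277 to 5115 in normal livers. Macrophage markers rose for 9 of 15 tested in Fah p21 off and 4 of 15 in Fah off livers, beside 17.7% and 20.1% of all tested probe sets. Marco, 1 of the 15, reached the filter's level in 1 normal liver and entered through the livers off NTBC. The summed signal of the macrophage list was 15850 to 16290 in Fah p21 off and 11940 to 14510 in Fah off livers, against 7536 to 13420 in normal livers. Of the hepatocyte markers 9 of 10 fell in Fah p21 off and 10 of 10 in Fah off livers, beside 10.7% and 15.4% of all tested probe sets. Of 8 tested endothelial markers 1 rose in each, of 4 tested lymphocyte markers none passed, and both tested erythroid markers fell. In Fah p21 off livers on 430 2.0, against a single normal liver, the median change of the hepatocyte list was -0.50, beside -0.73 on 430A. For macrophage markers it was 0.28 beside 0.63, for cholangiocyte markers 1.49 beside 1.58 and for stellate and matrix markers 1.33 beside 0.78. The median of all genes was 0.01 on 430 2.0 and 0.09 on 430A. The part of any of these cells in the annexin and S100 changes was not tested.

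**Figure D4:**
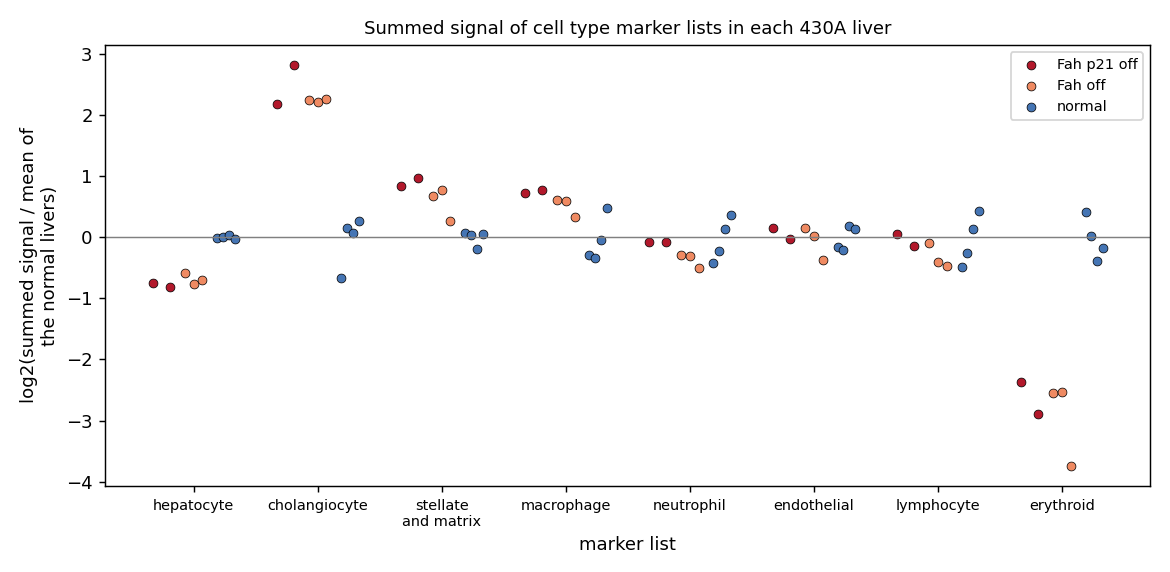
Summed MAS5 signal of each list of cell type markers in each liver, as log2 over the mean of the 4 normal livers of 430A. Cholangiocyte, stellate and macrophage lists lie above 0 in the 5 livers off NTBC, though normal 4 overlaps them in the macrophage list, the hepatocyte list lies below 0, and the neutrophil list is highest in normal 4.

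The genes whose log2 values stayed nearest to those of Anxa2 over the 9 livers of 430A, each centred on its normal mean, were Maged2, Cgref1, Slc25a4, Krt8 and Enoph1, out of 9051 genes compared. Their root mean square differences from Anxa2 were 0.15 for Maged2, 0.18 for Cgref1 and 0.24 for each of the other 3. Krt8 encodes keratin 8, a main keratin of hepatocytes, and rose by 1.36 in Fah p21 off and 1.28 in Fah off livers, beside 1.31 and 1.08 for Anxa2. The genes nearest to S100a8 were B3gntl1 at 0.21, Igtp at 0.32, Bspry and Saa3 at 0.33 each and Ano10 at 0.35. Saa3 is an acute phase protein and Igtp a target of interferon gamma. The S100a8 values are dim, so that closeness to them reflects small differences near the background, and these distances over 9 arrays are descriptions with no test.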

How the data were processed

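Liver RNA of 12 arrays was analysed, 9 of 430A and 3 of 430 2.0, with groups taken from the titles. The deposited values are intensity signals, 1 per probe set and array, which the authors made, per the submitters' processing notes, with MAS5 in GCOS 1.4.0.036. A trimmed mean (2nd to 98th percentile) lay at 349.5 to 350.1 on the 12 arrays. The number of arrays limits the precision.

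The fits used log2(signal + offset), the offset being the table's 10th percentile, so fold changes of dim probe sets are understated. After leaving out 64 control probe sets of each array, those reaching the 40th percentile of their array on 2 or more arrays entered the test (15307 for 430A, 26925 for 430 2.0). Each table had 1 limma fit (limma 3.58.1, R 4.3.3, lmFit and eBayes with trend), with 6 residual degrees of freedom on 430A and 1 on 430 2.0. The fit was tested on simulated data. Benjamini-Hochberg adjustment ran over all tested probe sets.

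Symbols came from GEO's platform annotation, updated by Entrez identifier through the RefSeq gene table of GRCm38.p6 (20351 probe sets matched on 430A, 34741 on 430 2.0). Probe sets with 1 symbol, several and none numbered 20380, 691 and 1555 on 430A and 34945, 932 and 9160 on 430 2.0. Genes outside the members were read by the probe set with the highest mean log2 value.

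The members and gene lists were chosen with earlier results of these data known. Named by rule were all member probe sets, Fah and Cdkn1a, at most 3 genes of a list that passed with the largest changes or its dimmest markers, and the 5 genes nearest to Anxa2 and to S100a8. Ltf, Camp, Mpo, Plg, Anxa4, Anxa6, Marco and the cholangiocyte markers were named outside that rule, after their values were seen. Among 36 pairs of 430A arrays at most 0.407% of signals were identical, so no array was counted as a duplicate. Same-numbered livers of different groups did not deviate together (7 pairs, correlation -0.28 to 0.07), so the numbers were not used as pairs. Alternatives were other filters, offsets and scalings, limma without trend or robust, a 2-fold minimum, only the groups compared, only the genotype-matched normal mouse, the replicate number as a block, and each liver left out.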

Additional observations from a re-analysis of the deposited data

Results flagged for a closer look

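S100a9 read 191.7 in normal 4, the Fah p21 double knockout kept on NTBC, against 26.5 to 54.3 in the other 3 normal livers of 430A, a gap wide enough to set that liver apart from its group by Dixon's test for 4 samples. The test was made on the normal group of 14 probe sets, and chance alone sets apart about 1 in 20 groups. The array of the same replicate number on 430 2.0 also read highest for S100a9, at 264.3, with 21.1 and 85.2 in the Fah p21 off livers.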

How the results depend on the processing

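No result reversed under any alternative run. In Fah off against normal livers the members that rose numbered 7 or 8 with each liver left out in turn (4304 to 5244 probe sets in all, against 5437 with every liver), and 2265 of all probe sets passed with a 2-fold minimum. Of the members that rose, Anxa3 (1.84-fold) and Anxa7 1416138_at (1.96-fold) did not reach that minimum in Fah off livers. Anxa1 (1.69-fold) and Anxa7 1416138_at (1.6-fold) did not reach it in Fah p21 off livers. In Fah p21 off against normal livers the members numbered 5 to 9 with 1 liver left out (2477 to 4636 in all, against 4353 with every liver, and 2563 without Fah p21 off 2 and 2477 without Fah p21 off 1), 5 against the genotype-matched normal mouse alone and 2135 in all with a 2-fold minimum. Against that mouse, a single liver assumed to vary like the other groups, where 1997 passed in all, Anxa1, Anxa2 and Anxa7 1416138_at were no longer called (limma adjusted p = 0.115, 0.147 and 0.109); in Fah off livers 7 members and 2694 in all passed. In Fah p21 off against Fah off livers no member passed in any run, and the count of all probe sets, 6, became 1 with a 60th percentile filter or an offset of 1, 14 with the offset at the 25th percentile, 13 without trend, 4 with quantile normalization, 3 with a common median, 2 with robust limma or only the 2 groups, and 1 to 58 with 1 liver left out, the 58 being without Fah p21 off 1. With the replicate number as a block the members that passed were 8 in Fah off, 7 in Fah p21 off and 0 between the genotypes off NTBC, and the counts of all probe sets 4463, 3479 and 1. On 430 2.0 the members fell to 3 of 6 with no filter or without trend (1002 and 1225 of 3101 in all). There S100a8 and S100a9 passed as lower with a common median (limma adjusted p = 0.0104 and 3.95e-06). With quantile normalization Anxa7 1416138_at and S100a10 1456642_x_at also passed there (limma adjusted p = 0.0358 and 0.0477). On 430A, Anxa7 1438764_at passed as lower in Fah p21 off against normal livers with quantile normalization or a common median (limma adjusted p = 0.0239 and 0.036), and Anxa7 1416138_at was no longer called with a common median (limma adjusted p = 0.125). The causes were not tested. Leaving out a liver, a block or matched groups could not be run on 430 2.0, which then has no residual degrees of freedom. The median log2 change of all tested probe sets in Fah p21 off against normal livers was 0.11 as scaled by the authors, -0.02 after quantile normalization and -0.13 with a common median.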
